A study of Mus musculus with 4 samples.

Results

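The genes described here encode integrin subunits and partner adhesion molecules with which blood lymphocytes hold on to vessel walls and to other cells. They were chosen by name and are Itgal, Itgb2, Itga4, Itgb7, Itgb1, Itga6, Selplg, Icam2 and Cd44. All 9 were found in the deposited table of 15093 genes, and together they held 18903 unique molecular identifiers (UMIs, each of which marks 1 captured RNA molecule), or 798 counts per 1000000 UMIs (CPM).

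Peripheral blood mononuclear cells came from 4 C57BL/6 mice. The study describes wild-type females aged 3.2 ± 0.3 months for its ear skin mice, and the same setup for these 4. The treated mice Maus3_2 and Maus6 were anaesthetized with ketamine and xylazine and received non-thermal plasma (NTP), a stream of partly ionised argon from a plasma jet, on the left ear for 10 min. The untreated mice Maus2_2 and Maus4_2 received the same anaesthetics without NTP. Blood was drawn from the vena cava 120 min after NTP in treated mice and 120 min after the start of anaesthesia in untreated mice, and cells were separated on a Ficoll gradient and sequenced in droplets from the 3' end of the RNA. Each mouse gave 1 library, so the skin that was treated is not in the data and all mice were anaesthetized, the treated ones for longer before blood was drawn. That difference and NTP cannot be told apart.

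The 4 libraries held 4653719 to 7093148 UMIs in 993 to 1705 cells, 5794 cells in all. The authors' annotation named 3130 B cells, 474 plasmablasts, 1517 CD4+ T cells, 600 CD8+ T cells and 73 NK cells. Of 5790 distinct cell barcodes, 4 occurred in more than 1 mouse. In sums by type, the B, CD4+ and CD8+ labels matched their defining markers. B cell markers (5 genes) were at 4501 to 4933 CPM in B cells and at most 23.7 CPM in T cells. The 2 CD8 genes were at 791 to 857 CPM in CD8+ and at most 63.1 CPM in CD4+ T cells. The authors' cluster 7, 154 cells of which 152 were annotated CD4+ T cells, was mixed. Its CD8 genes summed to 127 to 365 CPM, against 6.86 to 16.2 CPM in cluster 3 and 8.36 to 18.5 CPM in cluster 5. B cells held 267 UMIs of Lyz2, a monocyte marker, and CD4+ T cells 9. The cells annotated as plasmablasts had 0 UMIs of Jchain, the joining chain of secreted antibody, and their 5 plasma cell markers summed to 193 to 234 CPM against 176 to 228 CPM in B cells, while their B cell markers summed to 7077 to 8806 CPM. The cells annotated as NK cells carried T cell receptor complex genes (the 5 T cell markers summed to 1987 to 2397 CPM) and CD8 genes (515 to 745 CPM) as well as NK genes. Their 6 NK cell markers summed to 808 to 1345 CPM, the highest of the 5 types (450 to 596 CPM in CD8+ T cells), with Nkg7 at 574, Klrd1 at 292, Gzma at 108 and Klre1 at 51.3 CPM, and Ncr1 and Klrb1c at 1 UMI each. Both are therefore called annotated plasmablasts and annotated NK cells below. In annotated plasmablasts the red blood cell markers summed to 3713 CPM in Maus2_2 and to 6.85 to 110 CPM in the other mice.

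An integrin is a pair of an alpha and a beta chain, and the pairing sets what it binds. Itgal with Itgb2 forms LFA-1, which binds ICAM proteins on vessel walls and on antigen-presenting cells. Itga4 pairs with Itgb1 to form VLA-4, the receptor for VCAM-1 on inflamed endothelium, or with Itgb7 to form the receptor for MAdCAM-1, which guides lymphocytes to the gut. Itga6 pairs mainly with Itgb1 and binds laminin of the basement membrane. Selplg encodes PSGL-1, the protein on which selectins catch rolling leukocytes. Icam2 is a ligand of LFA-1, and Cd44 binds hyaluronan and rises on T cells that have met antigen.

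The study followed 5 miRNAs in ear skin of other mice treated in the same way, and none was measured in these blood cells. The short RNA sequences below are shown because the members differ in whether their transcripts hold a match to them. Each mature sequence is from RefSeq (GRCm38.p6), 5′ to 3′, with the seed, bases 2 to 8, in capitals.
mmu-miR-223-3p: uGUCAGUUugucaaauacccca
mmu-miR-144-5p: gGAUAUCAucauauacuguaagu
mmu-miR-142a-5p: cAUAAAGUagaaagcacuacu
mmu-miR-451a: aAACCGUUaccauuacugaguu
mmu-miR-144-3p: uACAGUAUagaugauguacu
The 5 seeds differ from each other. Each was searched as its reverse complement on the transcript strand in 1 annotated 3' UTR per gene, the longest (GENCODE vM21, GRCm38). This gave a background of 12493 genes. Which UTR these cells use was not examined, so a match may lie outside it.

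The letters ACTTTAT that pair with the seed of miR-142a-5p, a miRNA of blood cells, occurred in the UTRs of 15.8% of those genes. Among the members they occurred in Itga4 (3 places) and in Cd44 (1 place). The letters ATACTGT for miR-144-3p occurred in 13.3% of genes and once in Itgb1. The letters for miR-223-3p (AACTGAC, 9.23% of genes), miR-451a (AACGGTT, 1.9%) and miR-144-5p (TGATATC, 5.64%) were in none of the 9 members. The matched stretches are given with the pairing letters in capitals, on the transcript strand.
Itga4, chr2:79331108-79331137, plus strand: atctcttgcagACTTTATtataccatctta
Itga4, chr2:79331474-79331503, plus strand: tggagacatagACTTTATtaattaatactt
Itga4, chr2:79332984-79333013, plus strand: gagtttctacaACTTTATacccattgctca
Cd44, chr2:102813429-102813458, minus strand: ttttttaggttACTTTATcagaagcataac
Itgb1, chr8:128732979-128733008, plus strand: ctttttcacaaATACTGTaagctgtcctgc
The third Itga4 match and the Itgb1 match are followed by an A (8mers), and the other 3 are 7mers. The UTR of Itga4 is 6508 bases long, that of Cd44 2992 and that of Itgb1 1112, while those of Itgb7 (165) and Icam2 (151) are the shortest of the members. A match of letters is a description and was not tested as a binding site.

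The members fell into patterns by annotated cell type (plot of levels by cell type and mouse). Selplg, Itga6, Itgb2, Itgb7 and Itgal were higher in CD4+ T cells than in B cells in each of the 4 mice, Cd44 and Icam2 were higher in B cells in each of the 4 mice, and Itga4 and Itgb1 differed in neither way. Levels are CPM of the UMIs summed over the cells of 1 type in 1 mouse, given as mean ± SD over n = 4 mice. The cell types were made from expression in the same cells, so these levels are descriptions without a test. Fewer molecules per cell and fewer cells with the molecule cannot be told apart in such sums, and levels are compared across cells within a gene, never between genes.

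**Figure D1:**
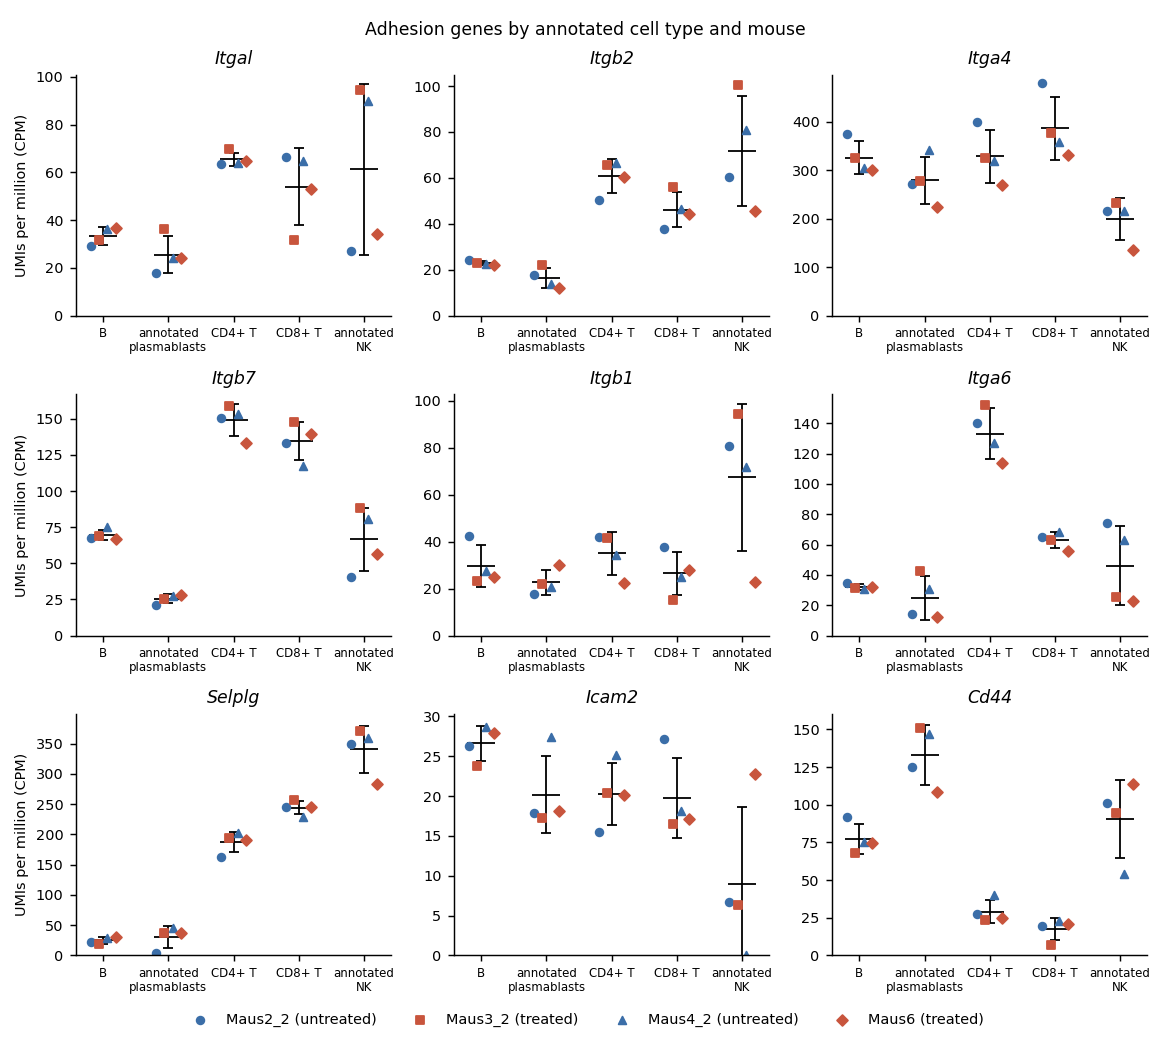
Level of each gene (y axis, CPM, linear from 0) in the 5 annotated cell types (x axis); each point is 1 mouse, blue untreated and red treated, and bars are the mean ± SD over 4 mice. Selplg in the T cell types sits above 160 CPM and in B cells below 31 CPM, while Cd44 is highest in annotated plasmablasts and lowest in CD8+ T cells.

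Itgal (chr7:127296260-127335138, plus strand), the alpha chain of LFA-1, was at 29.2, 31.5, 36.5 and 36.8 CPM in B cells of Maus2_2, Maus3_2, Maus4_2 and Maus6, and at 63.5, 69.6, 63.8 and 64.8 CPM in their CD4+ T cells. The ranges were apart, and the mean in CD4+ T cells was 1.95 times that in B cells. In CD8+ T cells it reached 54.0 ± 16.1 CPM, with Maus3_2 at 31.5 CPM and the other mice at 53.1 to 66.5 CPM. Annotated plasmablasts (25.5 ± 7.66 CPM) overlapped with B cells, and annotated NK cells (61.3 ± 35.7 CPM, 32 UMIs) overlapped with the T cell types.

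Itgb2 (chr10:77530252-77565708, plus strand), the beta chain of LFA-1, was also higher in both T cell types than in B cells. It was at 24.3, 23.1, 22.4 and 22.1 CPM in B cells and at 50.5, 65.8, 66.4 and 60.2 CPM in CD4+ T cells, a ratio of the means of 2.64. CD8+ T cells had 46.2 ± 7.65 CPM, below CD4+ T cells in each mouse although the ranges overlapped, and annotated NK cells had 71.8 ± 24.0 CPM. Annotated plasmablasts had the least, 16.4 ± 4.47 CPM from 29 UMIs.

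Itga4 (chr2:79255426-79333123, plus strand), the alpha chain shared by VLA-4 and the gut-homing integrin, was the member whose means differed least between B and CD4+ T cells. Its level was 374, 325, 304 and 302 CPM in B cells and 401, 325, 319 and 270 CPM in CD4+ T cells. Maus2_2 was the highest in both, and again in CD8+ T cells (481 against 331 to 377 CPM). The ratio of CD4+ T to B cells was 1.01, and that of CD8+ T to B cells was 1.19, with CD8+ T cells higher in each of the 4 mice. No neighbours in the order of the 5 types were apart, from CD8+ T cells (387 ± 65.2 CPM) down to annotated NK cells (200 ± 43.2 CPM).

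Itgb7 (chr15:102215995-102231944, minus strand), which completes the gut-homing integrin, separated the types more. CD4+ T cells had 151, 159, 153 and 134 CPM and CD8+ T cells 133, 148, 117 and 140 CPM, which overlapped with each other and not with B cells. B cells had 69.6 ± 3.77 CPM and annotated plasmablasts 25.5 ± 2.99 CPM, a ratio of 2.73 with ranges apart.

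Itgb1 (chr8:128685654-128733200, plus strand), the beta chain of VLA-4 and of the laminin receptor, was low in the main types. B cells had 42.6, 23.1, 27.4 and 24.9 CPM, and CD4+ T cells 42.1, 41.7, 34.2 and 22.4 CPM. Its level among the CD8+ T cells ran from 15.1 CPM in Maus3_2 to 37.8 CPM in Maus2_2. All 3 ranges overlapped, and so did that of annotated NK cells (67.4 ± 31.2 CPM, 37 UMIs). In CD4+ T cells, the memory and effector marker list (8 genes) summed to 122, 106, 93.5 and 35.6 CPM in Maus2_2, Maus3_2, Maus4_2 and Maus6, in the same order as Itgb1. The part of these markers in that order was not tested.

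Itga6 (chr2:71745616-71858416, plus strand) had its highest level in CD4+ T cells, at 141, 152, 127 and 114 CPM. CD8+ T cells had 65.0, 63.1, 68.2 and 55.8 CPM, apart from CD4+ T cells, and B cells 32.1 ± 1.76 CPM. The mean in CD4+ T cells was 2.12 times that in CD8+ T cells and 4.15 times that in B cells.

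Selplg (chr5:113818536-113832644, minus strand) had the widest contrast of the 9 members between CD4+ T and B cells, with a ratio of the means of 7.54. B cells had 21.8, 19.1, 28.2 and 30.4 CPM, CD4+ T cells 163, 194, 202 and 190 CPM, and CD8+ T cells 245, 256, 230 and 245 CPM. Annotated NK cells were higher again, at 341 ± 39.0 CPM, and each of these steps among the T and NK types was apart in range. Annotated plasmablasts had 3.57 CPM in Maus2_2, a single UMI, and 36.1 to 44.5 CPM in the other mice.

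Icam2 (chr11:106377656-106388075, minus strand), the ligand of LFA-1 among the members, ran the other way. It was at 26.6 ± 2.18 CPM in B cells and 20.3 ± 3.92 CPM in CD4+ T cells, higher in B cells in each mouse, but the ranges overlapped. The shares of these cells with an Icam2 UMI, given below, hardly differed. Annotated NK cells had 4 Icam2 UMIs in all and 0 in Maus4_2.

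Cd44 (chr2:102811141-102901665, minus strand) was at 91.6, 67.7, 75.1 and 74.2 CPM in B cells. The T cell types were lower, with 27.2, 23.7, 40.0 and 24.7 CPM for CD4+ and 19.6, 6.85, 22.7 and 20.7 CPM for CD8+. Annotated plasmablasts were the highest, at 125, 151, 147 and 108 CPM. These 4 ranges did not overlap. The mean in annotated plasmablasts was 1.72 times that in B cells, and the mean in B cells 2.67 times that in CD4+ T cells.

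Shares of cells with at least 1 UMI were compared after thinning each cell to 2000 UMIs, which left out 224 B cells, 33 annotated plasmablasts, 17 CD4+ T cells and 2 CD8+ T cells. Selplg was then seen in 4.71% of B cells, and its share was 30.9% for CD4+ T, 37.6% for CD8+ T and 53.4% for annotated NK cells. Cd44 was seen in 11.4% of B cells (exact binomial 95% interval 10.3 to 12.6), 21.8% of annotated plasmablasts and, among T cells, 5.07% (CD4+) and 2.84% (CD8+). Itga4 was seen in 41.4% of B cells and, among T cells, 39.8% (CD4+) and 47.0% (CD8+). As a gauge of free RNA, Cd3e was seen in 0.310% of B cells and Cd79a in 1.13% of CD4+ T cells, while Ighm, a far more abundant B cell gene, was seen in 22.0% of CD4+ T cells. Icam2 was seen in 4.78% of B cells (4.04 to 5.62) and 4.47% of CD4+ T cells (3.48 to 5.64), with overlapping intervals. Before thinning its shares were 8.40% and 8.57%, in the reverse order. In annotated NK cells it was seen in 4 of 73 before thinning (5.48%) and in 0 after it. The intervals cover counting error only. Median depth before thinning was 3364 UMIs in B cells, 4429 (CD4+) and 5556 (CD8+) in T cells and 7114 in annotated NK cells.

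The authors' 12 clusters divide the types further, and the heat map of mean levels by cluster shows that the members did not move together within a type. Cluster 8, 144 cells of which 137 were annotated CD4+ T cells, had the highest mean of Itgal (104 CPM), Itga4 (472 CPM), Itgb7 (213 CPM), Itgb1 (139 CPM) and Itga6 (170 CPM) of all clusters. For each of these genes the range over mice overlapped that of the next cluster. Cluster 8 also held the regulatory T cell markers (4 genes, 1215 to 1884 CPM in the 4 mice against at most 308 CPM in any mouse of any other cluster). Its monocyte markers ranged from 19.4 CPM in Maus2_2 to 1020 CPM in Maus4_2. Without the 8 cells that had a UMI of Lyz2, Csf1r or Cd14 the pooled level of Itgb1 went from 160 to 162 CPM and that of Itgal from 93.5 to 81.9 CPM.

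**Figure D2:**
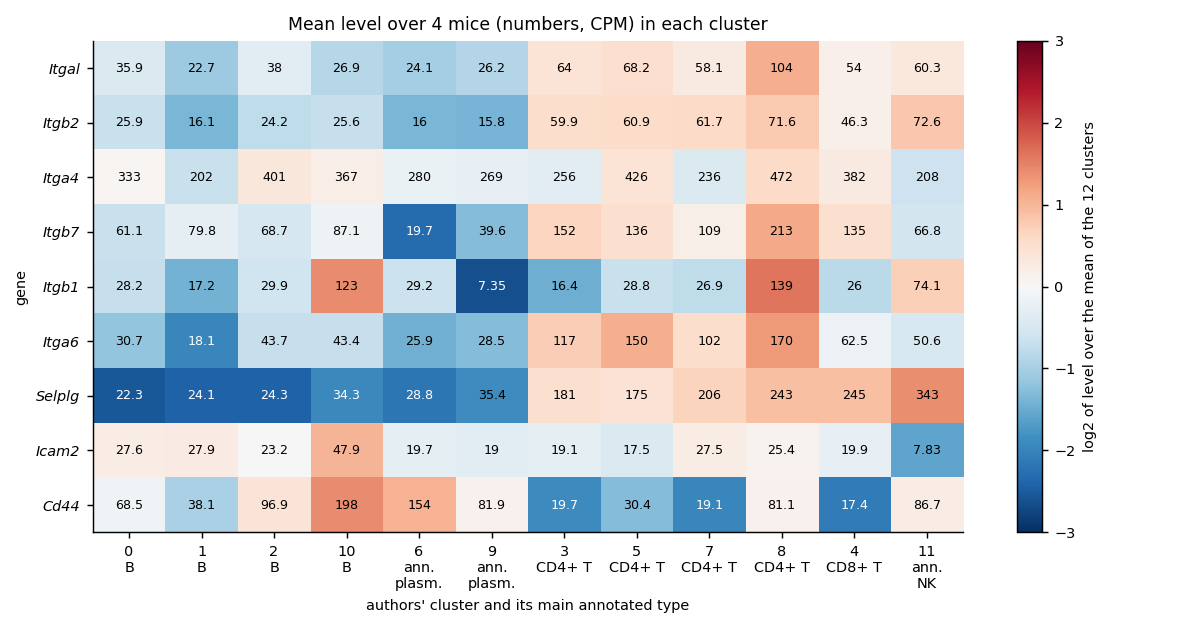
Mean level over 4 mice of each gene (rows) in each of the authors' clusters (columns, with the main annotated type); numbers are CPM and colour is the log2 of the level over the gene's mean across the 12 clusters. Cluster 8 is red for each of the 6 integrin genes, whereas Cd44 is highest in clusters 10 and 6.

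B cells formed clusters 0, 1, 2 and 10. Cluster 1 had the lowest Itga4, 202 ± 26.3 CPM, against 333 ± 43.4 CPM in cluster 0 and 401 ± 20.5 CPM in cluster 2, and clusters 1 and 0 were apart in range, as were clusters 1 and 2. Cd44 had the same order, with means of 38.1, 68.5 and 96.9 CPM in clusters 1, 0 and 2 and all 3 ranges apart, and Itga6 went from 18.1 through 30.7 to 43.7 CPM. Itgb7 did not follow, at 79.8, 61.1 and 68.7 CPM, nor did Icam2, at 27.9, 27.6 and 23.2 CPM. The clusters also differed in depth (median 2683, 3269 and 4245 UMIs per cell) and in the share of UMIs from ribosomal protein genes (30.8%, 25.2% and 19.3%), and the part of either in the order was not tested.

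Cluster 10, 80 B cells, had the highest mean Cd44 (198 CPM) and Icam2 (47.9 CPM, 17 UMIs), but both ranges overlapped that of the next cluster. Its Cd44 was 277 and 271 CPM in the untreated Maus2_2 and Maus4_2 and 129 and 116 CPM in the treated Maus3_2 and Maus6. These levels rest on 71 UMIs, with 7 cells in Maus2_2. Treatment was not tested in this cluster, and the share of all genes apart in it was not counted. In Maus3_2, Cd44 was higher in clusters 6 (158 CPM) and 9 (161 CPM) than in cluster 10. Itgb1 in cluster 10 was 252 CPM in Maus2_2 (7 cells), 40.3 in Maus3_2, 171 in Maus4_2 and 27.4 in Maus6, so the mean of 123 CPM rested on both untreated mice. The cluster was marked by S100a6, a calcium-binding protein gene, at 654 CPM. Between the clusters of annotated plasmablasts, cluster 6 (341 cells) had the lowest Itgb7 of all clusters, 19.7 ± 3.34 CPM, and Cd44 at 154 ± 29.0 CPM, and cluster 9 (109 cells) had 39.6 and 81.9 CPM. The red blood cell markers of cluster 6 summed to 5180 CPM in Maus2_2.

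Within CD4+ T cells, Itga4 was at 295, 230, 287 and 212 CPM in cluster 3 and at 493, 478, 355 and 379 CPM in cluster 5, ranges that were apart. Itgb7 (152 and 136 CPM) and Selplg (181 and 175 CPM) were near each other in these clusters. Ribosomal protein genes took 35.5% of the UMIs of cluster 3 and 26.4% of those of cluster 5, a gap in the opposite direction to Itga4 as among the B cell clusters. Cluster 11, 77 cells of which 72 were annotated NK cells, had the highest Selplg, 343 ± 43.8 CPM, and the lowest Icam2, 7.83 CPM.

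Since Itgb7 and Itgb1 share Itga4 as a partner, the share of Itgb7 among the UMIs of both was compared across clusters (plot of the beta subunit share by cluster). The share depends on how well each 3' end is captured, so only its differences between cells are described. It was 90.1% (exact binomial 95% interval 87.4 to 92.5) in cluster 3, 82.3% in cluster 5 and 84.0% in the CD8+ cluster 4. Cluster 8 was at 58.3% (52.0 to 64.4), cluster 10 at 51.4% (39.4 to 63.1), cluster 11 at 46.7% (35.1 to 58.6) and cluster 6 at 41.3% (29.0 to 54.4). By mouse, cluster 8 had 56.4, 55.6 and 57.4% in Maus2_2, Maus3_2 and Maus4_2 and 92.9% in Maus6. Cluster 10 had 16.7, 68.8, 41.4 and 76.5% in Maus2_2, Maus3_2, Maus4_2 and Maus6, a spread wider than its pooled interval, and cluster 11 had 29.4 to 58.3%.

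**Figure D3:**
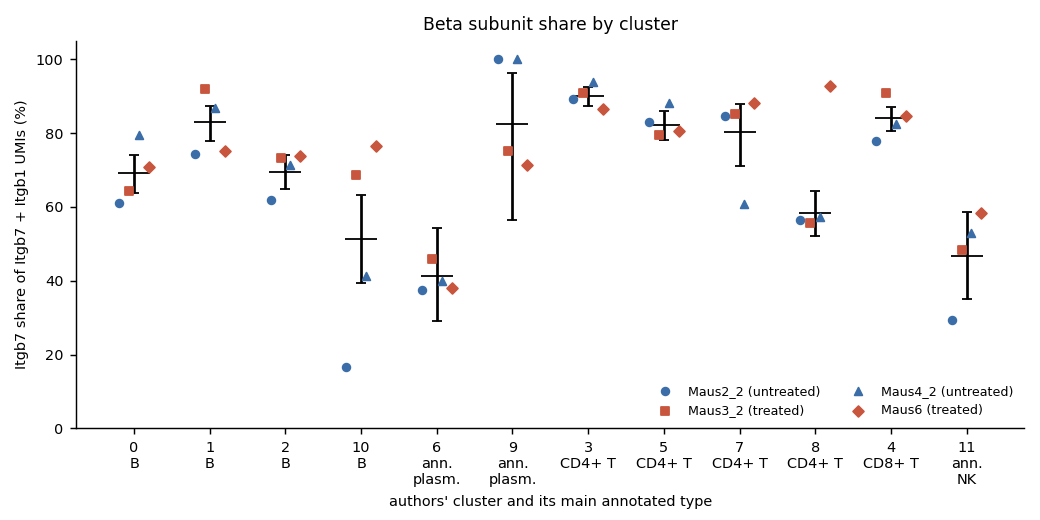
Itgb7 UMIs as a percent of Itgb7 plus Itgb1 UMIs (y axis, percent) in each cluster (x axis); horizontal marks are all cells pooled with exact binomial 95% intervals, and points are single mice. Cluster 3 lies at 90.1% and cluster 6 at 41.3%, and Maus6 stands apart from the other mice in cluster 8.

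The cells of cluster 8 were split by marker after its values were seen, so the split is a description. Of its 144 cells, 48 had a UMI of Foxp3, the regulatory T cell factor, 17 had a UMI of S100a4, a gene of memory T cells, and 71 had neither, beside the 8 cells with monocyte RNA. No cell fell in both of the first groups. Pooled over mice, Itgb1 was at 486 CPM (Poisson 95% interval 348 to 659) in cells with S100a4, 149 CPM (109 to 198) in cells with neither and 58.6 CPM (31.2 to 100.3) in cells with Foxp3. Itgb7 was at 569 CPM (419 to 754) with S100a4, against 180 CPM with neither and 185 CPM with Foxp3.

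Itga6 ran the other way in these cells, at 23.7 CPM (2.87 to 85.6, 2 UMIs) with S100a4, 202 CPM with neither and 221 CPM with Foxp3. Itga4 was at 592 CPM with S100a4 and 623 CPM with neither, but at 230 CPM (171 to 302) with Foxp3. The 17 cells with S100a4 came from Maus2_2 (4), Maus3_2 (7), Maus4_2 (5) and Maus6 (1), and their Itgb1 was 908, 563, 160 and 0 CPM. Maus6 also had 0 Itgb1 UMIs in its 9 cells with neither marker, where the other mice had 129 to 223 CPM. A cell without a UMI of a marker may still express it.

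**Figure D4:**
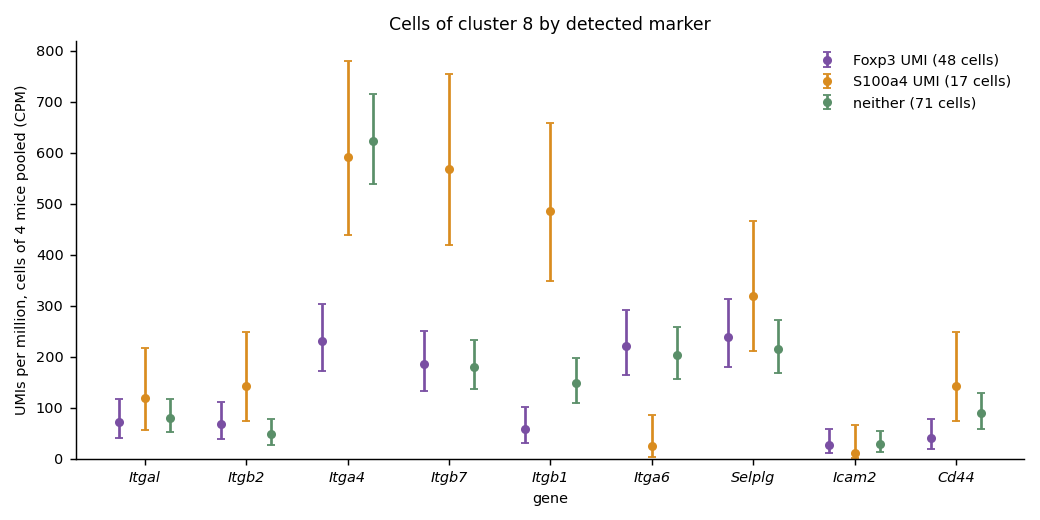
Level of each gene (y axis, CPM, cells of 4 mice pooled) in cells of cluster 8 with a Foxp3 UMI, with an S100a4 UMI or with neither (colours); bars are exact Poisson 95% intervals, which cover counting error only. Itgb7 and Itgb1 are highest and Itga6 lowest in the 17 cells with S100a4.

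Outside cluster 8, CD4+ T cells with a UMI of the memory and effector list had Itgb1 at 39.5 CPM and those without at 20.6 CPM. CD8+ T cells with a UMI of the list had Cd44 at 21.7 CPM and those without at 13.1 CPM, with overlapping Poisson intervals. The other pairings were Cd44 in the CD4+ T cells, at 16.2 CPM with a UMI of the list and 23.9 CPM without, and Itgb1 in the CD8+ ones, at 28.4 and 23.5 CPM. These splits, too, were made after values were seen.

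The genes whose levels ran most like each member were sought over 43 sums of a cluster in a mouse, among 5762 genes, by Pearson's r of log2(CPM + 10). The sums share libraries and cell types, so r is a description. Selplg ran with the T cell genes Cd96, Rgs10 and Cd3e (r = 0.94 for the last). Itgb7 ran with Fxyd5 (r = 0.92), Gimap4 and Gimap3, and Itgb2 with Spn (r = 0.85), Hpcal1 and Ms4a4b. Itga6 ran with Adk (r = 0.87), A630023P12Rik and Lrig1, and Itgal with Traf1 (r = 0.81), Itga6 and Arhgap9. Cd44 ran with Rftn1 (r = 0.83), Camk2d and Ccdc50, and Itga4 with Zswim6 (r = 0.76), Cmip and Akap13. Icam2 (Hist1h4d, r = 0.67, then Bola3 and Pcnx) and Itgb1 (H2afz, r = 0.64, then Pim1 and Cul4b) had no close likeness. The chains of LFA-1, Itgal and Itgb2, had r = 0.66 with each other, Itga4 had r = 0.32 with Itgb7 and 0.40 with Itgb1, and Cd44 had r = -0.53 with Selplg.

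Whether NTP on the ear changed these genes in circulating cells after 120 min was asked with sums per mouse, 2 treated against 2 untreated (plot of the treatment contrast). No member passed the threshold (adjusted p under 0.05, edgeR's quasi-likelihood test, adjusted over all genes tested) in any of the 4 types with enough cells. The share of all tested genes that was called came to 0% for B cells, 0% for CD4+ and 0.0294% for CD8+ T cells, and 0.0186% for annotated plasmablasts. At an unadjusted p under 0.05 there were 460 of 9903 genes in B cells, of which 1 was a member (Itgb1). CD4+ T cells had 416 of 8680 such genes, the CD8+ ones 574 of 6798, and annotated plasmablasts 365 of 5372, with no member in the last 3. In annotated plasmablasts 5 members were tested, and Itgal, Itgb2, Itgb1 and Icam2 fell under the filter on low counts. DESeq2 and limma-voom called 0 members as well.

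In B cells, the treated and untreated values of 2 of 9 members did not overlap, and neither did those of 34.6% of all genes. Itgb1 was at 42.6 and 27.4 CPM in the untreated Maus2_2 and Maus4_2 and at 23.1 and 24.9 CPM in the treated Maus3_2 and Maus6. Its log2 fold change was -0.49 (SE 0.21, adjusted p = 0.934, edgeR). Without Maus2_2 it was the smallest in size, -0.16. Cd44 was lower too, 91.6 and 75.1 against 67.7 and 74.2 CPM, with a log2 fold change of -0.19 (SE 0.14).

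In CD4+ T cells, 2 of 9 members did not overlap between the groups, against 35.3% of all genes. Itgal was at 63.5 and 63.8 CPM in untreated and 69.6 and 64.8 CPM in treated mice, a log2 fold change of 0.13 (SE 0.14). Cd44 was at 27.2 and 40.0 CPM in untreated and 23.7 and 24.7 CPM in treated mice, -0.43 (SE 0.24, adjusted p = 0.903, edgeR). Itga4 overlapped and had -0.22 (SE 0.13).

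In CD8+ T cells, 4 of 9 members did not overlap, against 38.7% of all genes. Itgal was at 66.5 and 64.8 CPM in untreated and 31.5 and 53.1 CPM in treated mice, with a log2 fold change of -0.48 (SE 0.25, adjusted p = 0.635, edgeR). In Maus3_2, the lower of the treated mice, the 6 platelet markers summed to 35.6 CPM, against 1.14 to 1.80 CPM in the other mice, and their part in the value was not tested. Itgb7 was at 133 and 117 CPM in untreated and 148 and 140 CPM in treated mice, 0.30 (SE 0.17, adjusted p = 0.660, edgeR). Itga6 (-0.08) and Icam2 (-0.30) were lower with SEs of 0.22 and 0.39. In annotated plasmablasts 0 of 5 tested members were apart, against 36.8% of all genes.

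**Figure D5:**
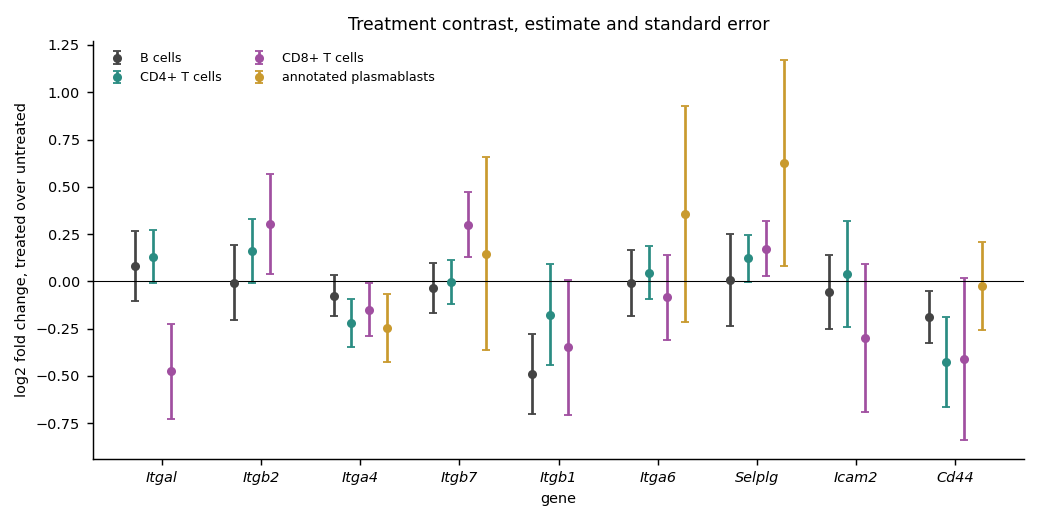
Log2 fold change of treated over untreated mice (y axis, 2 mice against 2, edgeR) for each gene (x axis) in 4 annotated cell types (colours); bars are ± 1 standard error, and a missing point is a gene under the filter on low counts. Estimates lie between -0.49 and 0.63, and no gene passed the adjusted threshold.

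The median log2 fold change of the members was -0.03 for B cells, 0.04 for CD4+ T, -0.15 for CD8+ T and 0.15 for annotated plasmablasts, while that of all genes tested was 0.00 or 0.01 in each type. In Itga4, whose UTR holds 3 matches to the seed of miR-142a-5p, the estimate was below 0 in all 4 types, -0.08, -0.22, -0.15 and -0.25. Cd44, with 1 match, was below 0 in the same types, at -0.19, -0.43, -0.41 and -0.02. Each was within 2 standard errors of 0. The types come from the same 4 mice, so their signs are not independent, and a relation to the matches was not tested. Maus2_2, an untreated mouse, had the highest Itga4 in 3 of these types, and without it the estimate was above 0 in B cells (0.07) and CD8+ T cells (0.09).

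The same contrast within clusters of at least 20 cells in every mouse called no member. All genes were called at 0.0391% in cluster 0, 0.0306% in cluster 1, 0.0125% in cluster 2, 0% in clusters 3, 4, 5 and 8, 0.0222% in cluster 6 and 0.0756% in cluster 9. The smallest unadjusted p values among members came from Itga4 in cluster 3 and Itgal in cluster 8. The first was at 295 and 287 CPM in untreated and 230 and 212 CPM in treated mice, -0.37 on the log2 scale (SE 0.13, adjusted p = 0.948, edgeR). Itgal in cluster 8 was at 53.3 and 68.7 CPM in untreated and 122 and 170 CPM in treated mice, 1.20 (SE 0.39, adjusted p = 0.9999, edgeR), from 63 UMIs in all.

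Itgb1 in cluster 8 depended on 1 library. It was at 165 and 166 CPM in untreated mice and at 215 CPM in Maus3_2 and 11.3 CPM in Maus6, which gave -0.27. Without Maus3_2, so that Maus6 with its 20 cells stood alone for the treated mice, it became -3.74 with an adjusted p of 0.00333 (edgeR), and without Maus6 it was 0.35.

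The treatment effect was then compared between types in models with a term for each mouse. Between B and CD4+ T cells no member passed, and 0.00986% of 10143 genes did. Between CD4+ and CD8+ T cells no member passed, and 0.0114% of 8735 genes did.

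Further genes of adhesion were taken as 4 lists. Of 19 other integrin subunits in the table, 3 were tested in B cells and 2 in CD4+ and CD8+ T cells each, since most had few UMIs. Itgae, which pairs with Itgb7 to bind E-cadherin on epithelium, was at 58.6 CPM in CD8+ T cells and at most 4.49 CPM in each other type. Itgav was at 76.0 CPM in B cells and 33.7 CPM in CD4+ T cells, lower in CD4+ T cells in every mouse. Spn, the sialomucin CD43, was at 3.92 CPM in B cells and 74.4 CPM in CD4+ T cells, the same direction as Selplg. Alcam, a ligand of CD6, was at 222 CPM in B cells and 6.69 CPM in CD4+ T cells.

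Genes that carry signals to integrins or link them to actin were found in both lineages, though some at very unequal levels. Of 31, 14 were higher in CD4+ T cells than in B cells in each of the 4 mice and 13 lower in each. Among the first were Apbb1ip (RIAM, 452 against 267 CPM), Tln1 (talin, 190 against 140 CPM) and Rap1b (393 against 315 CPM). Skap1 (1403 against 16.5 CPM) and Fyb (772 against 5.70 CPM), also among the first, were scarce in B cells. Ezr (155 against 273 CPM) and Rasgrp2 (121 against 154 CPM) were among the latter. Of 13 selectin and carbohydrate genes with a UMI in either type 5 were higher and 7 lower. Of 17 immunoglobulin superfamily and other surface genes the numbers were 6 and 7, and of 17 integrin subunits 3 and 3. The share of all genes that ran one way in every mouse was not counted, so these counts are not read as a trait of adhesion genes.

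No gene of these lists was called between treated and untreated mice in any type, in edgeR. An unadjusted p under 0.05 (edgeR) was found for 460 of 9903 genes in B cells and 416 of 8680 in CD4+ T cells. CD8+ T cells had 574 of 6798 such genes and annotated plasmablasts 365 of 5372. Among them were 2 of 31 linker genes in B cells, Ezr (log2 fold change 0.28, SE 0.10) and Sipa1l1 (-0.26, SE 0.11), and none of the other lists' genes. In CD4+ T cells there were Itgav (-0.55, SE 0.21) and Glg1 (-0.38, SE 0.13). CD8+ T cells had 3 of 29 linker genes, among them Rapgef6 (-0.27) and Arhgap15 (-0.21), and Cd48 (0.59, SE 0.27). Annotated plasmablasts had, among others, C1galt1 (0.47, SE 0.18) and Flna (-0.63, SE 0.27). Of the 29 linker genes tested in CD8+ T cells, 13 were lower and 0 higher in both treated mice than in both untreated mice. In this type 38.7% of all genes did not overlap in one direction or the other, and the share that was lower was not counted. The same list had 7 lower and 3 higher of 31 in B cells, 10 and 1 of 31 in CD4+ T cells, and 9 and 2 of 27 in annotated plasmablasts. There 34.6%, 35.3% and 36.8% of all genes did not overlap. In CD8+ T cells the list's median log2 fold change was -0.04, against 0.01 for all genes.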

How the data were processed

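Reads were aligned to mm10 and turned into UMI counts by the authors (Cell Ranger 7.1.0), who annotated cells in Seurat 4.3.0, per the submitters' processing notes and methods, after SoupX and DoubletFinder. The deposited table holds UMI counts, whole numbers per gene and cell, and a deposited cell table gives cell type, cluster and the percent of mitochondrial counts. Whether the counts hold the SoupX correction, and whether intronic reads were counted, was not stated there. Intronic reads would raise long genes such as Itga6 and Cd44. No doublet caller was run again, and 0 columns of single samples were left unused.

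Counts were summed per mouse and annotated type or cluster. Levels are CPM of these sums. Treatment was tested with edgeR 4.0.16 (R 4.3.3) by quasi-likelihood on TMM-scaled sums, with its filter on low counts (minimum 10), Benjamini-Hochberg adjustment over all genes tested and a threshold of 0.05, where every mouse had at least 20 cells. That left out annotated NK cells and clusters 7, 10 and 11. The sums of the 4 tested types held 279795 to 3457389 UMIs, and those of small clusters fewer. Fold changes are TMM-scaled and can differ slightly from ratios of CPM. A permutation test of 2 mice against 2 cannot go below p = 0.333 and was not used. The fits were tested on simulated counts. DESeq2 1.42.0, limma-voom (limma 3.58.1), RLE scaling, no filter, sums from equal numbers of cells and fits without 1 of the mice were alternatives.

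The members and the gene lists were chosen with earlier results of these data known. From each list, the 2 genes with the smallest unadjusted p in each type could be named, and for likeness the 3 closest genes with a mean of at least 20 CPM over sums of at least 20 cells. Genes given as examples of levels by type, and the cluster 8 and memory list splits, were chosen after values were seen. Gene positions and UTRs come from GENCODE vM21 (GRCm38). 1 gene of the lists is not reported here.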

Additional observations from a re-analysis of the deposited data

Results flagged for a closer look

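Itgal was the 1 member whose groups were apart in opposite directions in different cell types. Both treated mice were above both untreated mice in CD4+ T cells (log2 fold change 0.13) and below them in CD8+ T cells (-0.48). In CD4+ T cells the nearest values were 63.8 CPM (untreated) and 64.8 CPM (treated). Of all genes, 35.3% were apart in CD4+ and 38.7% in CD8+ T cells, and the share apart in opposite directions was not counted. The difference between the types, tested after the pattern was seen in an edgeR model with a term for each mouse, was -0.62 (SE 0.29, unadjusted p = 0.0296, adjusted p = 0.970 over all genes), so it did not pass the threshold. Groups of 2 mice are too small for a search for single outlying samples, which was not made.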

How the results depend on the processing

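No member passed the threshold in any annotated type under any alternative that was run. No paired analysis was possible because the mice carry no shared replicate numbers in the labels. Counts of all genes past the threshold moved, and the cause was not tested. Without the filter on low counts they were 21 in B cells and 11 in CD4+ T cells (0 each with it), 11 in CD8+ T cells (2) and 13 in annotated plasmablasts (1). DESeq2 called 0 in the last 2 types, and limma-voom and equal cells per mouse 1 each in CD8+ T cells. Leaving out 1 mouse, so that the lone mouse of its group was assumed to vary like the others, gave 10 to 16 genes for B cells, 6 to 16 for CD8+ T cells, 3 to 13 for annotated plasmablasts, and 0 to 1 members in cluster 8. Thinning to 2000 UMIs moved the members higher in B than CD4+ T cells in every mouse from 2 to 1, and those higher than in annotated plasmablasts from 3 to 1.

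Of 32 log2 fold changes of members in types, 19 turned sign when a mouse was left out and 5 under another setting. In B cells Itgal was -0.011 with equal cells, Itgb2 0.0028 without the filter, and Selplg -0.038 by limma-voom and -0.071 with equal cells. In CD4+ T cells Itgb7 was 0.0033 without the filter and 0.0076 with equal cells, and in annotated plasmablasts Cd44 was 0.012 without the filter. With 1 mouse left out, B cells gave -0.068 to 0.26 for Itgal, -0.063 to 0.042 for Itgb2, -0.22 to 0.072 for Itga4, -0.11 to 0.052 for Itgb7, -0.097 to 0.069 for Itga6, -0.39 to 0.33 for Selplg and -0.20 to 0.081 for Icam2. CD4+ T cells gave -0.021 to 0.37 for Itgb2, -0.12 to 0.092 for Itgb7, -0.70 to 0.16 for Itgb1, -0.16 to 0.22 for Itga6, -0.024 to 0.29 for Selplg and -0.26 to 0.43 for Icam2. CD8+ T cells gave -0.37 to 0.088 for Itga4, -0.61 to 0.0055 for Icam2 and -1.55 to 0.065 for Cd44. Annotated plasmablasts gave -0.055 to 1.002 for Itga6, -0.21 to 3.30 for Selplg and -0.26 to 0.17 for Cd44, and cluster 8 -3.74 to 0.35 for Itgb1. Depth limits the low members most, such as Icam2, which had 538 UMIs in all.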
